A study of Homo sapiens with 6 samples.

Results

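The genes described here encode proteins that choose which exons enter a messenger RNA, and the kinases that control them. They are the SR proteins named SRSF, the SR-like proteins TRA2A and TRA2B, the hnRNP proteins, and the kinases CLK1 to CLK4, SRPK1 and SRPK2. Members were chosen by gene symbol, with earlier results of these data known, from probe sets of the platform annotation that name exactly 1 gene. This gave 42 genes of 18132 in all, made up of 12 SRSF, 2 TRA2, 22 hnRNP, 4 CLK and 2 SRPK genes. Each gene is given by its probe set with the highest mean, and TRA2B by every probe set. HNRNPH2, whose 3 probe sets each name another gene as well, was not analysed here. For the same reason HNRNPA1P10, HNRNPA3P1, HNRNPCL3, HNRNPCL4 and HNRNPUL2-BSCL2 were not analysed.

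Tumors came from CRL-5889 cells carrying a transfected TRA2B-DNAH5 fusion (3 tumors) or the vector alone (3 tumors). CRL-5889 is an established line of human squamous lung carcinoma. All 6 tumors were grown as xenografts in nude mice, taken at 4 weeks, and measured on 1 Affymetrix array each. The labels do not state which parts of TRA2B and DNAH5 the construct holds, its promoter, whether the transfected cells were clones, or the age of the mice. The labels call the tumors biological replicates without naming the mouse of each. Each p-value therefore sets a group difference against the variation between tumors, not between known mice. Tumors are called fusion tumors and vector tumors 1 to 3.

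SR proteins carry an RNA-binding domain and a tail rich in arginine and serine, and mostly promote the use of the exons they bind. The TRA2 proteins bind GAA-rich exon sequences and act with SR proteins. Many hnRNP proteins act the other way and silence exons, so that the balance of both classes sets splice choice. SRPK kinases phosphorylate the arginine-serine tail in the cytoplasm and so favour import into the nucleus, and CLK kinases phosphorylate it inside the nucleus. Several of these genes limit their own level by splicing in an exon that exposes the transcript to nonsense-mediated decay.

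The deposited values are log2 probe set levels, on which a difference of 1 is a 2-fold change. Array medians ran from 6.34 to 6.39 in fusion tumors and from 6.27 to 6.37 in vector tumors. Vector tumor 1 had the lowest median. Of 9 squamous markers with a probe set, 7 passed the filter on dim probe sets, a mean level of 4.94. SOX2 was at 8.70 to 8.92 in fusion tumors and 9.24 to 10.10 in vector tumors, while the keratins KRT5 and KRT14 were under 6 in every tumor and the desmosomal genes DSG3 and DSC3 were below the filter. PKP1 and SERPINB5 were under 6 too. SFN was at 7.66 to 7.72 in fusion tumors and 7.56 to 7.85 in vector tumors. PERP was at 9.05 to 9.25 in fusion tumors and 9.10 to 9.47 in vector tumors. KRT14, DSG3, DSC3, PKP1, SERPINB5 and SFN were chosen after their values were seen. DNAH5, the other gene of the fusion, was at 7.23, 7.57 and 7.37 in fusion tumors and 6.90, 7.79 and 7.50 in vector tumors, and the groups overlapped. The arrays carry human probe sets, and how far mouse RNA binds them was not tested.

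No splicing factor transcript passed the test between fusion and vector tumors. Of 42 genes, 39 passed the filter and were tested, and limma with Benjamini-Hochberg adjustment over all 13694 genes called 0 of them (lowest adjusted p = 0.962), against 0.0730% of all genes. None had an unadjusted p below 0.05 either, against 5.89% of all genes. Of the members, 18 were above 0 and 21 below, with a median log2 fold change of -0.0036 beside 0.0020 for all genes tested. In 37 of 39 the estimate lay within a 1.25-fold change. The 95% confidence interval lay within a 1.25-fold change for 19 of 39 (48.7%, against 38.5% of all genes) and within a 1.5-fold change for 35 of 39 (89.7%, against 89.6%). A single member, SRPK2, had groups that did not overlap (2.56%, against 11.7% of all genes), and 0 members lay lower in every fusion tumor, against 5.74% of all genes. In whole tumors, fewer cells that express a gene and less RNA per cell cannot be told apart.

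**Figure D1:**
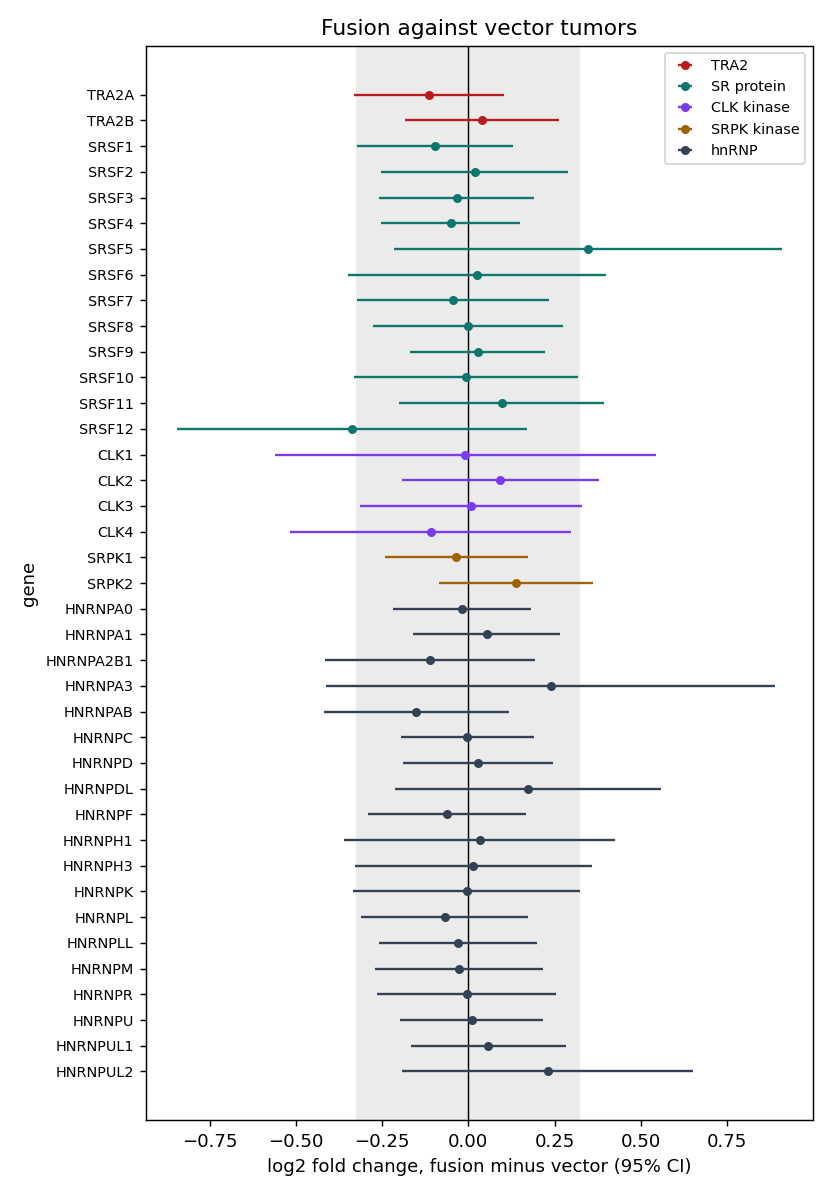
Log2 fold change, fusion minus vector, of the 39 tested genes (x axis) with limma's 95% confidence interval, one gene per row, coloured by class. The grey band marks a 1.25-fold change. Every interval includes 0, and HNRNPA3, SRSF5, CLK1 and SRSF12 have the widest.

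TRA2B, a splicing activator and one of the genes joined in the fusion, was at 11.59, 11.68 and 11.80 in fusion tumors and 11.56, 11.71 and 11.69 in vector tumors on probe set 11734662_a_at. The means were 11.69 ± 0.105 in fusion tumors and 11.65 ± 0.0835 in vector tumors (SD, n = 3 each). The groups overlapped, with a log2 fold change of 0.04 (SE 0.097, 95% confidence interval -0.18 to 0.26). The interval allows a level from 0.881 to 1.20 times that of vector tumors. TRA2B has 10 probe sets on the array, of which 9 passed the filter. Their log2 fold changes ran from -0.099 to 0.16, with 6 above 0, and limma called 0 of 9 in a fit of 31666 probe sets (0.0158% called).

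The TRA2B probe sets did not all lean one way. Probe set 11753945_x_at read 7.77, 7.89 and 7.87 in fusion tumors and 7.59, 7.73 and 7.72 in vector tumors. It was the only one of the 10 on which every fusion tumor lay above every vector tumor (log2 fold change 0.16, SE 0.096, adjusted p = 0.948, exact permutation p = 0.1, the smallest that 3 against 3 tumors can give). Probe set 11746042_s_at read 11.25, 11.25 and 11.11 in fusion tumors and 11.23, 11.33 and 11.31 in vector tumors, a log2 fold change of -0.092. The remaining dim probe set, 11734663_at, read 4.76, 4.28 and 4.55 in fusion tumors and 4.50, 4.55 and 4.48 in vector tumors. The annotation used does not say which part of the transcript each probe set reads, so the probe sets do not check the construct.

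TRA2A, the paralogue of TRA2B, was at 10.31, 10.19 and 10.26 in fusion tumors and 10.25, 10.46 and 10.39 in vector tumors. The groups overlapped through vector tumor 1 (log2 fold change -0.11, SE 0.095, adjusted p = 0.963). Among its 5 probe sets, 11726001_a_at stood at -0.18 and 11762748_s_at at 0.18. Set against the mean of the other TRA2A probe sets, 11762748_s_at was 0.29 higher in fusion tumors (SE 0.10, unadjusted p = 0.0217), which did not pass adjustment in limma over 26205 such comparisons.

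**Figure D2:**
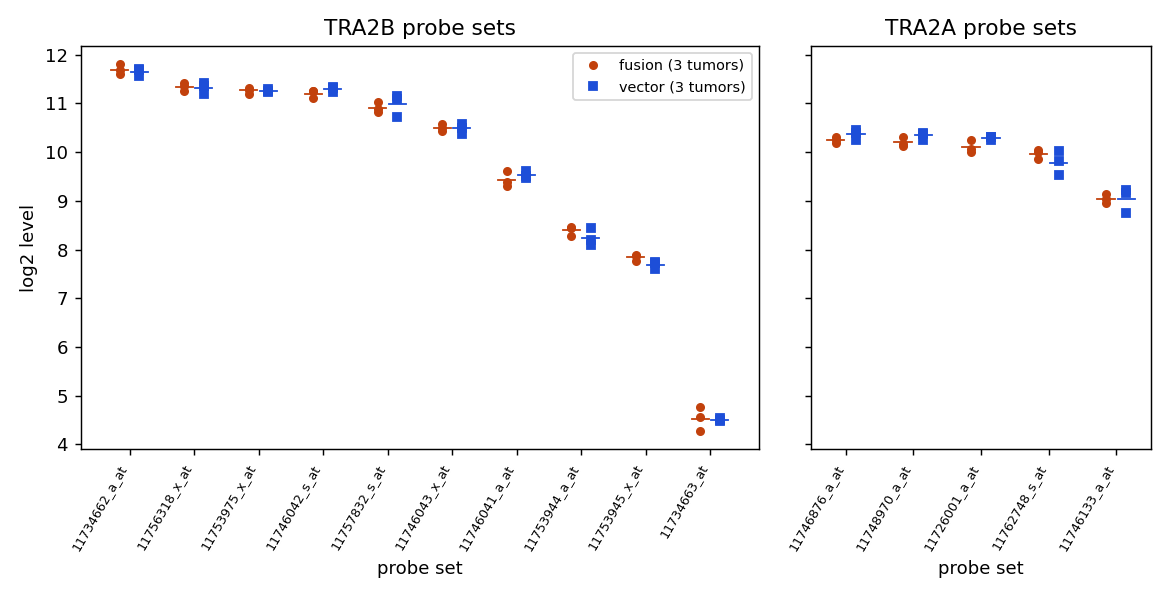
Log2 level (y axis) of each TRA2B and TRA2A probe set (x axis) in the 3 fusion tumors (orange circles) and 3 vector tumors (blue squares), with a line at each group mean. Fusion and vector points overlap on 9 of the 10 TRA2B probe sets and on all 5 of TRA2A.

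Among the SR proteins, 5 of 12 were above 0 and 7 below, with a median of -0.0046. SRSF1, the founding SR protein and an oncoprotein, was at 11.73, 11.54 and 11.64 in fusion tumors and 11.61, 11.82 and 11.77 in vector tumors. On this probe set, the one with the highest mean, the groups overlapped and the log2 fold change was -0.097 (SE 0.099, adjusted p = 0.963). The 6 SRSF1 probe sets ran from -0.21 to 0.18, with 4 above 0. On 11747684_a_at all fusion tumors lay below all vector tumors (-0.21, limma adjusted p = 0.865). SRSF9 was at 12.17, 12.17 and 12.28 in fusion tumors and 12.18, 12.20 and 12.16 in vector tumors. Its interval, 0.890 to 1.17 times the vector level, was the narrowest of the class, followed by SRSF4 (0.840 to 1.11) and SRSF3 (0.836 to 1.14), an SR protein that also serves in mRNA export. SRSF7, its close relative, had a log2 fold change of -0.044 (SE 0.12).

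In SRSF5 and SRSF12, 1 tumor lay apart from the other 5. SRSF5 was at 11.28, 11.66 and 11.58 in fusion tumors and 10.53, 11.47 and 11.48 in vector tumors. Vector tumor 1 was low and the other vector tumors lay among the fusion tumors. The means were 11.50 ± 0.203 in fusion tumors and 11.16 ± 0.546 in vector tumors (SD, n = 3 each). The log2 fold change was 0.35 (SE 0.25, adjusted p = 0.962) and 0.032 (SE 0.12) without vector tumor 1. SRSF12, a dim SR-related factor that antagonises SR proteins, was at 5.87, 6.79 and 6.51 in fusion tumors and 6.98, 6.64 and 6.56 in vector tumors. Here fusion tumor 1 was low (log2 fold change -0.34, SE 0.22, adjusted p = 0.962). The log2 fold change of SRSF12 was -0.081 without fusion tumor 1, -0.54 without fusion tumor 2 and -0.21 without vector tumor 1. SRSF11 had 0.097 (SE 0.13) and, without vector tumor 1, -0.045.

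Among the kinases of SR proteins, SRPK2 was the member whose groups separated. SRPK2 was at 10.07, 9.94 and 9.94 in fusion tumors and 9.72, 9.94 and 9.88 in vector tumors. All fusion tumors lay above all vector tumors, as in 5.94% of all genes, but fusion tumors 2 and 3 and vector tumor 2 read alike at 2 decimals. The log2 fold change was 0.14 (SE 0.097, limma adjusted p = 0.962, exact permutation p = 0.1) and 0.075 without vector tumor 1. The separation was on 11721821_a_at, the probe set that stood for the gene. On the SRPK2 probe sets 11721820_a_at and 11754831_a_at the groups overlapped. Their log2 fold changes were 0.034 and 0.0036, and -0.067 and -0.080 without vector tumor 1. SRPK1 was at 10.49, 10.49 and 10.33 in fusion tumors and 10.50, 10.46 and 10.44 in vector tumors (log2 fold change -0.034, SE 0.091).

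CLK1, which drives the release of SR proteins from nuclear speckles, was at 9.003, 9.11 and 9.24 in fusion tumors and 8.48, 9.42 and 9.48 in vector tumors. Vector tumor 1 lay below and vector tumors 2 and 3 above all fusion tumors, so that the log2 fold change was -0.0086 (SE 0.24) over 6 tumors and -0.33 (SE 0.098, adjusted p = 0.326) without vector tumor 1. CLK4, the closest relative of CLK1, had the same order, at 8.23, 8.14 and 7.85 in fusion tumors and 7.80, 8.47 and 8.27 in vector tumors. Its log2 fold change was -0.11 (SE 0.18) over 6 tumors and -0.30 (SE 0.13, adjusted p = 0.538) without vector tumor 1. CLK3 ran opposite, at 7.99, 7.86 and 7.997 in fusion tumors and 8.26, 7.83 and 7.73 in vector tumors, with 0.0075 and 0.17 in the same fits. CLK2 had a log2 fold change of 0.093 (SE 0.12) and, without vector tumor 1, -0.038. The order given for CLK1 and CLK4 also held on 11744828_a_at of CLK1 and 11726514_a_at of CLK4. It did not hold on their other probe sets past the filter. On CLK4 11726516_s_at every vector tumor (6.98, 7.10 and 7.29), vector tumor 1 included, lay above every fusion tumor (6.80, 6.92 and 6.84). Its log2 fold change was -0.27 (limma adjusted p = 0.840). Of the 6 CLK4 probe sets past the filter, 1 had a log2 fold change above 0. On CLK1 11716325_a_at vector tumor 1 (7.888) lay beside fusion tumor 1 (7.886), and fusion tumor 3 was highest (8.64).

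Among the 19 hnRNP genes tested, 9 were above 0 and 10 below, with a median of -0.0036. HNRNPC, which coats uridine tracts of nascent transcripts, was at 12.56, 12.65 and 12.64 in fusion tumors and 12.59, 12.62 and 12.64 in vector tumors. It had the narrowest interval of all members, 0.873 to 1.14 times the vector level. Within the hnRNP genes, HNRNPA0 (0.859 to 1.13) and HNRNPU (0.871 to 1.16), a nuclear scaffold protein, followed. HNRNPA1, a repressor that competes with SRSF1, was at 13.01, 13.09 and 13.06 in fusion tumors and 12.88, 13.07 and 13.06 in vector tumors (log2 fold change 0.053, SE 0.093), chosen for its role after its values were seen.

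HNRNPAB had the smallest p of the class and was at 12.13, 12.10 and 12.16 in fusion tumors and 12.52, 12.19 and 12.13 in vector tumors. Vector tumor 1 was high and the others alike (log2 fold change -0.15, SE 0.12, adjusted p = 0.962). HNRNPUL2 was at 9.48, 9.56 and 9.42 in fusion tumors and 8.78, 9.49 and 9.50 in vector tumors, with vector tumor 1 low (0.23, SE 0.18). HNRNPA3 was at 10.26, 10.46 and 10.19 in fusion tumors and 9.29, 10.44 and 10.46 in vector tumors, again with vector tumor 1 low (0.24, SE 0.28). Without that tumor the log2 fold changes were -0.032, -0.0065 and -0.15. HNRNPDL, HNRNPA2B1 and HNRNPL, a binder of CA repeats, had 0.17 (SE 0.17), -0.11 (SE 0.13) and -0.068 (SE 0.11), and -0.13, -0.20 and 0.012 without vector tumor 1. The 3 members below the filter were HNRNPA1L2, HNRNPCL1 and HNRNPCL2, copies related to HNRNPA1 and HNRNPC, which read 3.49 to 4.48 in fusion tumors and 3.48 to 4.75 in vector tumors.

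One vector tumor lay apart from the other 5. Vector tumor 1 was the lowest of the 6 tumors for 21 of the 39 tested members (53.8%), against 28.8% of all genes. The other 5 tumors were each the lowest for 0 to 5 members. Relative to the median of the other 5, vector tumor 1 had a median departure of -0.18 over the members and 0.0010 over all genes. The members lower there by more than 0.3 numbered 12 (30.8%, against 15.1% of all genes) and included HNRNPA3 (-1.15), SRSF5 (-0.95), CLK1 (-0.76) and HNRNPUL2 (-0.71). Higher by more than 0.3 were SRSF12 (0.42), CLK3 (0.40) and HNRNPAB (0.39). Over their probe sets past the filter, these departures ran from -0.21 to 0.42, 0.067 to 0.40 and 0.15 to 0.39.

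**Figure D3:**
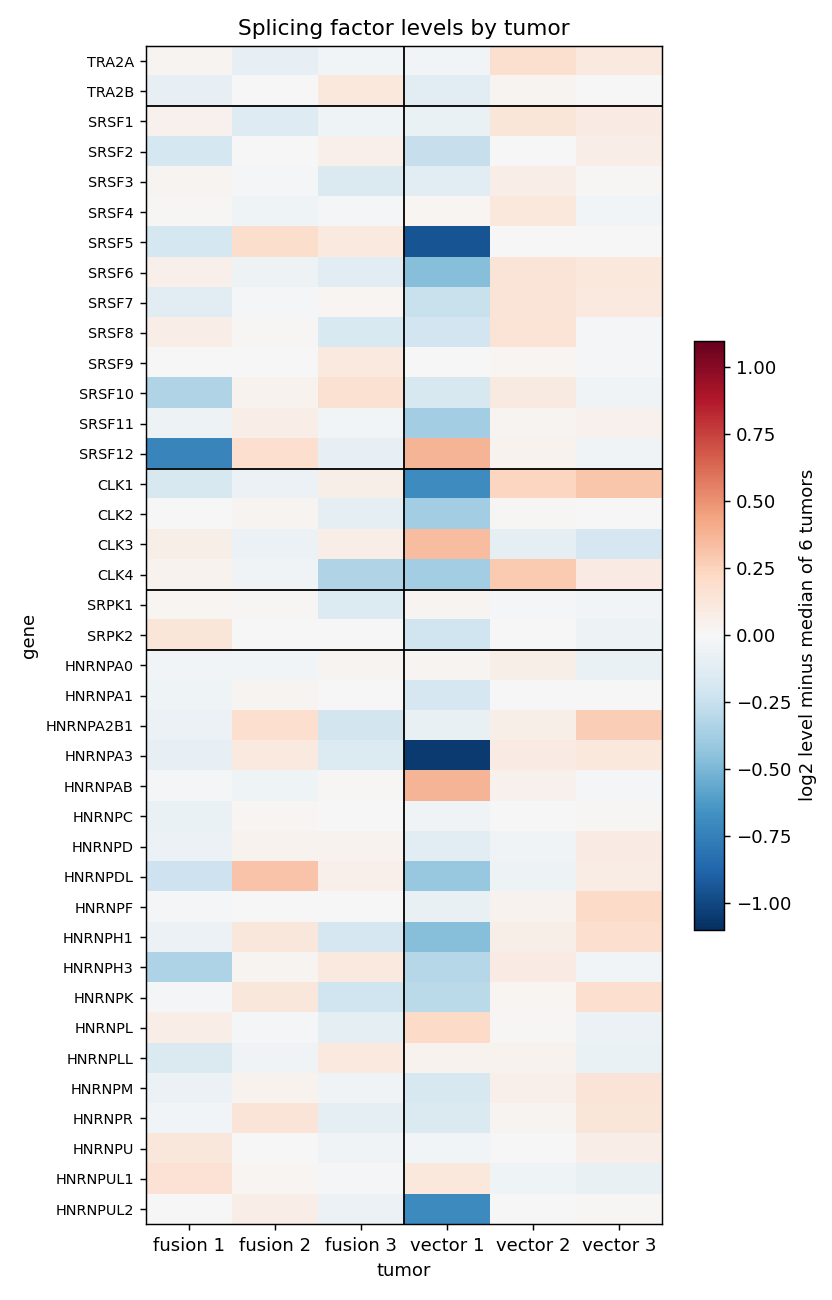
Log2 level of the 39 tested genes (rows, by class) in the 3 fusion and 3 vector tumors (columns), as the difference from each gene's median over 6 tumors. Blue is lower and red is higher. The vector 1 column holds the deepest blue, at HNRNPA3 and SRSF5.

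Skeletal muscle markers were high in the same tumor. Of 8 muscle genes with a probe set, 6 were highest in vector tumor 1, against 27.2% of all genes tested. Of the 8, 3 were below the filter. The mean of the 8 was 5.46 to 6.05 in fusion tumors and 5.60 to 6.30 in vector tumors, with the highest value in vector tumor 1. Troponin TNNT3 was at 5.97, 6.68 and 6.09 in fusion tumors and 7.10, 6.06 and 6.14 in vector tumors. Skeletal actin ACTA1 was at 6.92, 8.90 and 7.71 in fusion tumors and 8.96, 8.52 and 7.62 in vector tumors, so that fusion tumor 2 came close to vector tumor 1. Creatine kinase CKM was at 5.72, 6.13 and 5.65 in fusion tumors and 6.34, 5.86 and 5.64 in vector tumors. The part of muscle RNA, RNA quality or signal level in the departure of vector tumor 1 was not tested.

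Without vector tumor 1, limma again called 0 members (lowest adjusted p = 0.326), against 0.271% of all genes. CLK1 and CLK4 were the 2 with an unadjusted p below 0.05, against 9.21% of all genes. On the probe set that stood for each gene, groups did not overlap for 11 members (28.2%, against 25.9% of all genes). The fusion tumors of CLK1 and CLK4 all lay below both vector tumors, as did those of TRA2A, SRSF1, SRSF6, SRSF7, HNRNPF and HNRNPM, 8 members in all (13.8% of all genes did). The fusion tumors of CLK3, SRPK2 and HNRNPUL1 lay above both (12.1% of all genes did). SRSF6, HNRNPF, HNRNPM and HNRNPUL1 are named here after their values were seen. The members' median was then -0.076 beside -0.0026 for all genes.

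Within some genes, vector tumor 1 was low on some probe sets and not on others. Of 167 member probe sets past the filter, 11 (6.59%) lay more than 2-fold below the median of the other 5 tumors there, against 1.06% of all probe sets, and 0 did so in each of the other 5 tumors. They belonged to SRSF5, SRSF11, HNRNPU, HNRNPA2B1, HNRNPDL, HNRNPD, HNRNPA3 and HNRNPF, named after their values were seen. HNRNPA2B1, which sorts RNAs for transport, has 2 probe sets. One, 11742680_at, read 9.47, 9.81 and 9.55 in fusion tumors and 7.91, 9.73 and 9.596 in vector tumors. The other, 11742679_s_at, read 12.35, 12.60 and 12.22 in fusion tumors and 12.33, 12.48 and 12.69 in vector tumors, with vector tumor 1 inside the range of the rest.

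HNRNPU had a like split. Probe set 11757197_s_at read 8.35, 8.59 and 8.36 in fusion tumors and 6.51, 8.76 and 8.84 in vector tumors, the deepest departure of any member probe set (-2.08). Probe set 11721999_s_at read 11.86, 11.73 and 11.70 in fusion tumors and 11.71, 11.74 and 11.81 in vector tumors. In SRSF5 all 11 probe sets were lower in vector tumor 1, with log2 departures of -1.62 to -0.60. All 11 had a log2 fold change above 0 between the groups, from 0.040 to 0.39, and limma called 0.

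**Figure D4:**
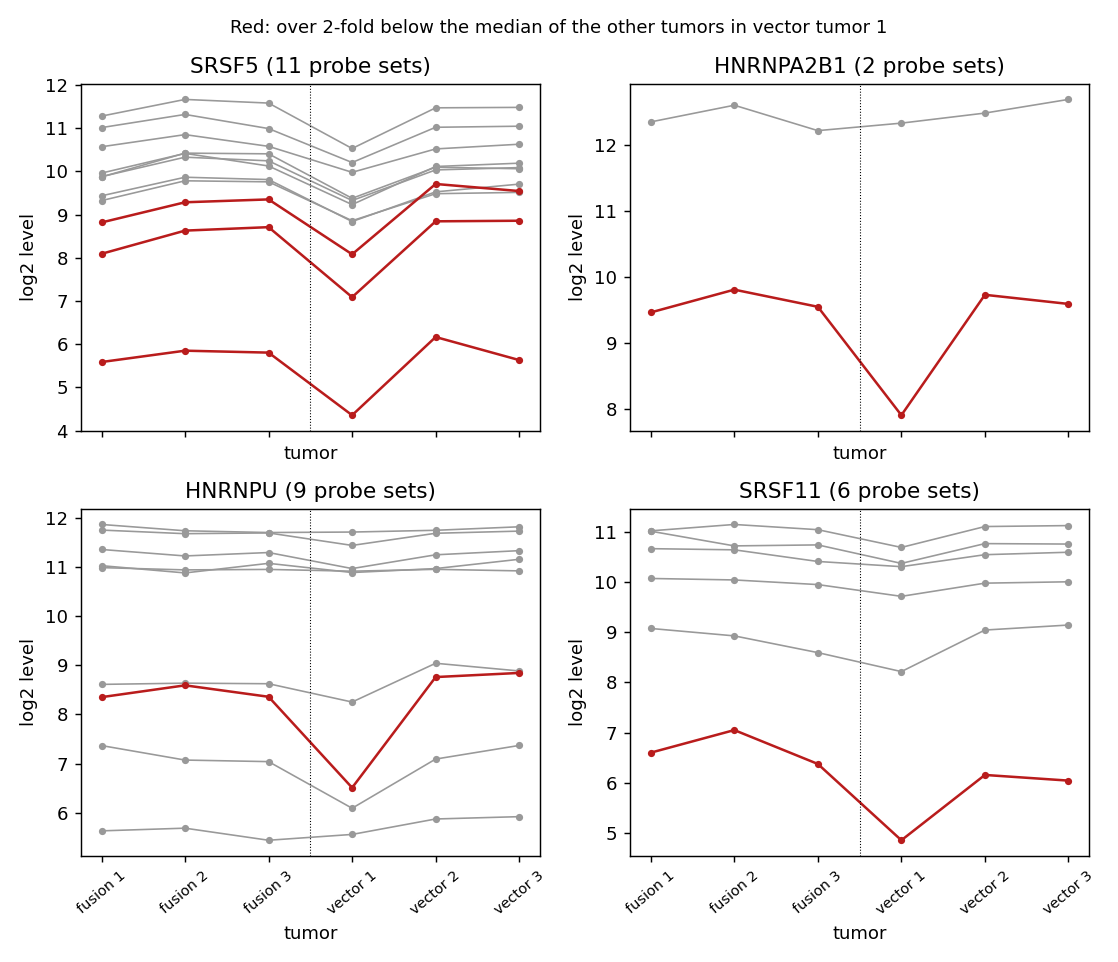
Log2 level (y axis) of each probe set past the filter of SRSF5, HNRNPA2B1, HNRNPU and SRSF11 across the 6 tumors (x axis), 1 line per probe set. Red lines lie more than 2-fold below the median of the other 5 tumors in vector tumor 1. In HNRNPA2B1 and HNRNPU they run beside grey lines with smaller departures there, such as -0.15 for 11742679_s_at.

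Between fusion and vector tumors, 5 of the 167 member probe sets had an unadjusted p below 0.05 (2.99%, against 5.71% of all probe sets) and 0 passed adjustment by limma (lowest adjusted p = 0.739). The lowest p belonged to SRSF11 probe set 11761781_a_at, at 6.60, 7.05 and 6.37 in fusion tumors and 4.85, 6.15 and 6.04 in vector tumors. All fusion tumors lay above all vector tumors (log2 fold change 0.99, SE 0.33, exact permutation p = 0.1). Against the other 5 SRSF11 probe sets it was 0.88 higher in fusion tumors (SE 0.24, unadjusted p = 0.00792) and 0.61 higher without vector tumor 1 (unadjusted p = 0.0106). Neither passed adjustment.

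The fit of each probe set against the rest of its gene asks whether a probe set differed between the groups apart from the others of its gene. It covered 163 probe sets of 35 members, of which 6 had an unadjusted p below 0.05 (3.68%, against 3.92% of all) and limma called 0 (lowest adjusted p = 1.00), as it did for 0% of all probe sets. After SRSF11 the smallest p values were those of HNRNPLL probe set 11761935_at (0.27 higher in fusion tumors, SE 0.081, unadjusted p = 0.0115), the TRA2A probe set above and HNRNPU probe set 11722002_a_at (-0.30, SE 0.11, unadjusted p = 0.0286). HNRNPLL is known for regulating the splicing of CD45 in T cells.

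Promoters are shown for the 2 members lowest in vector tumor 1 relative to the other tumors, HNRNPA3 and SRSF5, and for TRA2B as a gene of the fusion, a choice made after values were seen. Each runs from 250 bases before to 50 after the RefSeq start on GRCh38.p14, 5' to 3' on the gene's strand. Capitals mark matches on either strand to 6 short motifs. The TATA box was searched as TATAAA. The CCAAT box was searched as CCAAT. The GC box was searched as GGGCGG. The core bound by ETS factors was CGGAAG. The E-box was CACGTG. A part of the cyclic AMP response element was TGACGT. HNRNPA3 lies at chr2:177212544-177212843 on the plus strand, SRSF5 at chr14:69766892-69767191 on the plus strand and TRA2B at chr3:185937965-185938264 on the minus strand.
HNRNPA3: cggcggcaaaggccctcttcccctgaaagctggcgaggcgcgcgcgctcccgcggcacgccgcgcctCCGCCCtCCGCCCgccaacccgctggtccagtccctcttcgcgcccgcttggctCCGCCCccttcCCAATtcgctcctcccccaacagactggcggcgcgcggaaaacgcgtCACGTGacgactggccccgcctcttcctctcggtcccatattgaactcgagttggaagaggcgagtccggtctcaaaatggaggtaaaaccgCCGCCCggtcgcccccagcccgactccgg
SRSF5: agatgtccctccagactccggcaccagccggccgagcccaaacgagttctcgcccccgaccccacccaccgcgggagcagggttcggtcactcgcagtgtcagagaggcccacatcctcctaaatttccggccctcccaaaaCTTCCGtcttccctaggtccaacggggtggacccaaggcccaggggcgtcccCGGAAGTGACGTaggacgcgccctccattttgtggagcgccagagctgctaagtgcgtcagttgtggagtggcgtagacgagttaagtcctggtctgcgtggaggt
TRA2B: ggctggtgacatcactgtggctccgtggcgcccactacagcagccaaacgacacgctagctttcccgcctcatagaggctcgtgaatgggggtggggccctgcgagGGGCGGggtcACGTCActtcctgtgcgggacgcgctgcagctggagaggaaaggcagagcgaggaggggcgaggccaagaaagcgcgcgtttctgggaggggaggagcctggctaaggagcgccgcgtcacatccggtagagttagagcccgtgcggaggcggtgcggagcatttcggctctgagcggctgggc
HNRNPA3 held 4 GC boxes, 1 CCAAT and 1 E-box, SRSF5 2 ETS cores and 1 TGACGT, in which the second ETS core abuts TGACGT, and TRA2B 1 GC box and 1 TGACGT. None held TATAAA.

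Of the 39 tested members, 36 had a promoter in the RefSeq table. Their share of G and C had a median of 65.7% (36% to 77%), beside 64.7% over 11043 tested genes and 58.3% over all 27305 promoters. They held a median of 30.5 CpG dinucleotides, beside 25 in tested genes and 14 in all promoters. The E-box CACGTG, the site bound by MYC and related factors, was in 8 of 36 (22.2%, beside 9.67% of tested genes and 7.43% of all). The ETS core was in 14 (38.9%, beside 30.5% and 19.9%), CCAAT in 15 (41.7%, beside 36.2% and 35.7%), the GC box in 24 (66.7%, beside 66.9% and 44.6%), TGACGT in 6 (16.7%, beside 10.9% and 8.32%) and TATAAA in 5 (13.9%, beside 6.57% and 12.0%). A match describes letters in the window and no binding.

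Other genes of splicing were not called either, and the share of all genes at an unadjusted p below 0.05 was 5.89%. Of 34 core spliceosome genes limma called 0 (2 at an unadjusted p below 0.05), with 17 above 0 and 17 below and a median of 0.0059. PRPF19, a ubiquitin ligase of the spliceosome, was at 10.20, 10.28 and 10.25 in fusion tumors and 9.72, 9.93 and 10.02 in vector tumors. All fusion tumors lay above all vector tumors (log2 fold change 0.35, SE 0.10, adjusted p = 0.533). PRPF8, the scaffold at the catalytic centre, was at 11.12, 11.09 and 11.10 in fusion tumors and 11.43, 11.47 and 11.30 in vector tumors. It lay lower in every fusion tumor (-0.30, SE 0.089, adjusted p = 0.560). The RNA helicase SNRNP200, a partner of PRPF8, had -0.12.

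Of 34 other splicing regulators limma called 0 (2 at an unadjusted p below 0.05), with 20 above 0 and 14 below and a median of 0.027. RBM24, known for muscle splicing, had a log2 fold change of -0.44 (SE 0.165), TIAL1 0.21 (SE 0.089) and CELF2 0.36 (SE 0.16), with adjusted p of 0.733, 0.829 and 0.847. Of 11 other kinases, phosphatases and importins of SR and hnRNP proteins limma called 0 (0 at an unadjusted p below 0.05, median -0.022, 5 above 0). They were led by the kinases DYRK3 (-0.27) and DYRK1A (0.15) and the phosphatase catalytic subunit PPP1CA (0.13). Of 12 nonsense-mediated decay genes limma called 0 (1 at an unadjusted p below 0.05, median 0.051, 9 above 0), led by the endonuclease SMG6 (-0.22, adjusted p = 0.846), CASC3 (0.14) and UPF2 (0.25). Of 13 MYC and proliferation genes limma called 0 (1 at an unadjusted p below 0.05, median -0.0055), led by MKI67 (0.28), CCNB1 (-0.21) and CDK1 (-0.14).

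Vector tumor 1 was often the lowest or highest tumor in these lists. It was the lowest tumor for 22 of 36 other splicing regulators, 2 of them below the filter (61.1%, against 28.8% of all genes tested). Their list means were 9.32 to 9.38 in fusion tumors and 9.14 to 9.40 in vector tumors. The same tumor was lowest for 6 of 11 kinases, phosphatases and importins (54.5%) and 5 of 12 nonsense-mediated decay genes (41.7%). It was also lowest for 6 of 13 MYC and proliferation genes (46.2%), but for 5 of 34 core spliceosome genes (14.7%). Vector tumor 1 was the highest tumor for 16 of 34 core spliceosome genes (47.1%, against 27.2% of all genes tested). Their list means were 10.40 to 10.46 in fusion tumors and 10.37 to 10.49 in vector tumors. UPF2 was at 9.55, 9.34 and 9.53 in fusion tumors and 8.70, 9.44 and 9.52 in vector tumors, low in the same tumor as SRSF5 and HNRNPA3.

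Markers of other cell types were read as context. Limma called 0 of the 9 fibroblast, 7 leukocyte, 6 endothelial, 6 adipocyte, 5 muscle and 7 squamous markers tested, with 5, 1, 0, 3, 0 and 1 of them at an unadjusted p below 0.05, against 5.89% of all genes. List means were 6.81 to 6.89 in fusion tumors and 6.56 to 6.80 in vector tumors for fibroblast markers, and 5.51 to 5.55 in fusion tumors and 5.40 to 5.52 in vector tumors for leukocyte markers. These means include dim genes. The fibroblast genes DCN, LUM and COL6A3 and the leukocyte genes PTPRC, CD14 and CD163 were below the filter. PDGFRA, in the fibroblast list, read 12.91 to 13.08 in fusion tumors and 12.76 to 13.41 in vector tumors. FAP (log2 fold change 0.91, adjusted p = 0.202), COL1A1 (0.65, adjusted p = 0.593) and CD68 (0.80, adjusted p = 0.112) lay higher in every fusion tumor, and FBN1 (-0.50, adjusted p = 0.514), SOX2 (-0.83, adjusted p = 0.369) and PPARG (-0.38, adjusted p = 0.658) lower. Without vector tumor 1, SOX2 was past the threshold in limma (-1.04, adjusted p = 0.0436). Other named markers were CSF1R (0.17), TYROBP (-0.13), KRT5 (-0.13), PERP (-0.11), PLIN1 (-0.33), CIDEC (-0.26), CDH5 (-0.29), TIE1 (0.10), VWF (0.10), ACTA1 (-0.53), TNNT3 (-0.18) and CKM (-0.11). The part of these cell types in the splicing factor levels was not tested.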

How the data were processed

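RNA of 6 xenograft tumors was measured on Affymetrix arrays, 1 per tumor, after Trizol extraction and biotin labelling, per the labels. The values deposited by the authors are on a log2 scale, as judged from their range. How they were background corrected, normalized and summarised is not given in the sources used here. Depth does not apply to arrays, and the number of tumors limits precision.

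Of 49293 probe sets, 44988 named 1 gene, 1832 several and 2473 none in the platform annotation. Probe sets with a mean under the 30th percentile (4.94) were left out. Fusion minus vector differences were fitted with limma 3.58.1 in R 4.3.3 (lmFit, eBayes, two-sided) on genes, on probe sets, and on each probe set minus the mean of the others of its gene, and Benjamini-Hochberg adjustment covered each whole table with a threshold of 0.05. SDs are over 3 tumors per group. SEs and intervals are limma's, in which each variance is drawn toward a value common to all features fitted. They rest on 3 tumors per group, or on 2 vector tumors where vector tumor 1 was left out. The fits were tested on simulated data. The probe set with the highest mean stood for a gene. For 22 of the 39 tested members that probe set ends in _s_at or _x_at, types that related transcripts can share. Promoters and chromosomes came from RefSeq tables (GRCh38.p14). Named genes were all TRA2, CLK and SRPK genes, any member past the threshold, the 6 smallest p and 3 narrowest intervals among SRSF and among hnRNP genes, members below the filter, the 4 smallest p against the rest of the gene, and 3 genes per other list. Genes named beyond this rule were chosen after values were seen. The exceptions are DNAH5, as a gene of the fusion, and HNRNPH2 and the other matching symbols with no probe set of their own. Members and lists were chosen with earlier results of these data known. Alternatives covered the filter, the probe set, normalization, the variance model, array weights, the replicate block, the threshold and each tumor left out. Figures were drawn with matplotlib 3.10.9.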

Additional observations from a re-analysis of the deposited data

How the results depend on the processing

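Limma called 0 members in each of the 17 alternatives, 0 TRA2B probe sets, 0 member probe sets and 0 probe sets against the rest of their gene in those that could be applied to them, and 0 genes of the splicing, decay and proliferation lists. Leaving out each tumor in turn gave 0 throughout, and the replicate block also gave 0 (lowest adjusted p of a member 0.731). Same-numbered fusion and vector tumors correlated at 0.097, 0.17 and 0.051 in their deviations from the group means. Differently numbered ones correlated at -0.14 to -0.018. Whether the numbers mark a pairing cannot be told from these values. The lowest adjusted p of a member in any alternative was 0.205, for CLK4 with array weights, where all genes called numbered 140 against 10. Directions were not stable: 33 of 39 members changed sign in at least 1 alternative, and 6 did not (HNRNPAB, HNRNPUL1, SRPK2, SRSF12, SRSF4 and SRSF5). The share over all genes was not counted, so this is not shown to be particular to the members. In the main fit 37 of the 39 estimates lay within a 1.25-fold change. TRA2B ran from -0.077 to 0.088. The median of the members ran from -0.076 without vector tumor 1 to 0.055 when each gene was given by its most variable probe set. That choice moved SRSF11 to 0.99 and HNRNPU to 0.40. Without _s_at and _x_at probe sets 31 members remained and HNRNPA2B1 stood at 0.53. Median centring and quantile normalization moved the median of all genes to -0.027 and -0.017. SOX2 passed the threshold without vector tumor 1 (-1.04, limma adjusted p = 0.0436). With array weights SOX2, FAP, FBN1 and CD68 passed the threshold in limma too. The table holds no measure of background, which limits what dim probe sets can show.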
